A study of Mus musculus with 7 samples.

Results

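Genes that mark the epithelium of the pharynx and foregut (10 in all) were looked up by symbol in RNA-seq values from embryonic mouse outflow tracts (OFTs), as an epithelial check on tissue next to the heart in the dissections. Of these 10 genes, 4 were among the 14732 listed genes: *Krt8*, *Krt18*, *Krt19* and *Sox2*. The other 6 (*Epcam*, *Cldn6*, *Cldn7*, *Foxa2*, *Nkx2-1* and *Pax1*) had no row in the values used here and were not analysed. The rule uses gene symbols and no measured value.

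The OFT is the vessel through which blood leaves the embryonic heart. RNA was taken from pooled OFTs at embryonic day 11.5, with 3 control (WT) pools, numbered 3, 4 and 5, and 4 *Gata6*STOP/+ pools, numbered 1, 3, 4 and 5. By the design text a pool holds 4 pairs of OFTs and a genotype has 3 pools. The labels list 4 *Gata6*STOP/+ pools, and all 7 pools were used. In *Gata6*STOP/+ embryos, 1 copy of *Gata6* is cut short by a stop codon, made by CRISPR-Cas9 editing of exon 2 in a C57BL/6 background. The allele descends from a selected founder and is present in every cell of the embryo, so that epithelium, mesenchyme, endothelium and muscle all carry it. The study's reagent list also names *Mib1* alleles beside the line that was injected, and whether these pools carried them is not given in the sources used here. Each value comes from a pool of whole tissue, in which fewer cells of a type and less RNA per cell cannot be told apart.

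The pharynx and foregut are lined by endoderm, an epithelial sheet that lies just dorsal to the OFT and signals to the cardiac progenitors that build it. A simple epithelium of this kind is recognised by keratin filaments, each built from a type II keratin such as *Krt8* paired with a type I keratin such as *Krt18* or *Krt19*, by adhesion molecules such as *Epcam*, and by claudins such as *Cldn6* and *Cldn7*, which seal the tight junctions. Transcription factors then tell one stretch of the tube from another: *Foxa2* marks endoderm broadly, *Sox2* the anterior foregut and later the oesophagus, *Nkx2-1* the thyroid and lung buds, and *Pax1* the pharyngeal pouches. Few of these markers are private to the gut tube. Keratins 8, 18 and 19 are also made by mesothelium, *Sox2* by neural progenitors and *Pax1* by the sclerotome.

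The listed markers include a pair of neighbours in the genome, *Krt8* and *Krt18*. On assembly GRCm38, *Krt8* (ENSMUSG00000049382) occupies chr15:101996698-102004482 on the minus strand and *Krt18* (ENSMUSG00000023043) chr15:102028180-102032027 on the plus strand, so that they are transcribed away from each other across a gap of 23697 bases. *Krt19* (ENSMUSG00000020911) lies at chr11:100140810-100148665 on the minus strand and *Sox2* (ENSMUSG00000074637), which has a single exon, at chr3:34650405-34652461 on the plus strand. RefSeq promoter sequences (GRCm38.p6) were given for 9 of the 10 genes and for 3 of the 4 listed ones (*Krt8*, *Krt18* and *Sox2*). The sequences before the start sites of *Krt8* and *Krt18* are shown because these neighbours had alike courses over the pools and the studied mutation is in a GATA factor. They are read 5′ to 3′ on each gene's own strand and hold the part of the 250 bases before the RefSeq start that lies outside the annotated gene, at chr15:102004483-102004592 for *Krt8* (110 bases, minus strand) and chr15:102027966-102028179 for *Krt18* (214 bases, plus strand). Capitals mark GATAA on either strand.
Krt8: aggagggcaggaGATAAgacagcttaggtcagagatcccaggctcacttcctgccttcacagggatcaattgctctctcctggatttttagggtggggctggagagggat
Krt18: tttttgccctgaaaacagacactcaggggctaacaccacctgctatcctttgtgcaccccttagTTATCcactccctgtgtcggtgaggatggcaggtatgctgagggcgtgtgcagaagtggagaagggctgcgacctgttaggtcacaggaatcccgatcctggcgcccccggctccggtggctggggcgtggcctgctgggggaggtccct

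In the full 250 bases before the RefSeq start, 3 motifs were searched: GATAA and GGGCGG on both strands and TATAA on the gene's strand. No 2 of them overlapped in the windows of *Krt8*, *Krt18* or *Sox2*. GATAA occurred once before *Krt8*, on its own strand from 238 to 234 bases before the start. It also occurred once before *Krt18*, on the opposite strand from 186 to 182 bases before the start. It was present in 22.6% of 32851 promoter windows of the same length. TATAA stood 19 to 15 bases before the RefSeq start of *Krt18* and was found in 16.0% of windows. That match lies inside the annotated gene and so outside the printed sequence. The *Sox2* window, at chr3:34649745-34649994, lies upstream of the gene position given above and does not reach it. It held 2 matches of GGGCGG, a motif found in 32.7% of windows, and no GATAA. These matches describe letters in a window and are not evidence of binding.

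Total reads on listed genes ranged from 17783655 to 29035529 in the control pools and from 24736761 to 34467710 in the *Gata6*STOP/+ pools. Values are CPM, that is, reads brought to a common library size, here adjusted by the TMM factors of edgeR, and the reads behind them were recovered from their step size. Groups were compared with limma on log2(CPM + 0.5), a scale on which changes of genes with few reads are understated. *P*-values were adjusted over all 14732 genes. They set the difference between genotypes against the spread between pools, and the spread between single embryos was not measured. *Gata6* itself was at 315, 257 and 286 CPM in control pools 3, 4 and 5, against 268, 203, 219 and 217 CPM in *Gata6*STOP/+ pools 1, 3, 4 and 5. Its mean in the mutant pools was 79.2% of the control mean, with a log2 difference of −0.34 (SE 0.0987, adjusted *P* = 0.389, limma), and pool 1 of the mutant overlapped the controls. All 12 outflow tract markers looked up were listed, among them the muscle genes *Actc1*, *Acta2*, *Tnnt2* and *Myl7*. Their median log2 difference was −0.07. Of these, 1, the matrix gene *Postn*, had an unadjusted *P*-value under 0.05 (−0.47, adjusted *P* = 0.433, limma, named after its values were seen). The share of all listed genes with such an unadjusted *P*-value was 8.06%.

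None of the 4 listed markers separated the genotypes. The 3 keratins were well measured, with 691 to 2033 reads per pool, and each moved up and down within both groups. *Sox2* was near the bottom of the table. With limma, 0 of the 4 had an adjusted *P*-value under 0.05, against 0% of all 14732 genes, and 0 of the 4 had an unadjusted *P*-value under 0.05, against 8.06% (1187 genes). In each of the 4 the pools of both genotypes overlapped. Over all genes, every *Gata6*STOP/+ pool lay above every control pool in 4.31% and below in 4.16%. Other tools on the same values called 0 (edgeR quasi-likelihood), 105 (edgeR likelihood ratio) and 88 genes (DESeq2) over the whole table, and none of the 4 markers was among them.

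*Krt8*, the type II keratin of simple epithelia, was at 71.4, 43.4 and 56.6 CPM in control pools 3, 4 and 5. In *Gata6*STOP/+ pools 1, 3, 4 and 5 it was at 49.2, 73.6, 66.6 and 54.8 CPM. Control pool 4 was the lowest of the 7 and *Gata6*STOP/+ pool 3 the highest, and every mutant value but that highest one fell inside the control range. The means were 57.1 ± 14.0 CPM in controls (SD, n = 3) and 61.0 ± 11.1 CPM in mutants (SD, n = 4). The log2 difference was 0.11 (SE 0.167, 95% interval −0.26 to 0.47, adjusted *P* = 0.902, limma), which corresponds to a ratio between 0.834 and 1.39. Without control pool 4 the difference was −0.08, so its direction rested on that pool. The pools differed by more than read sampling: the 95% Poisson interval was 41.0 to 45.8 CPM in control pool 4 and 67.9 to 75.2 CPM in control pool 3. Such intervals cover counting error only, since PCR copies were not told apart.

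*Krt18*, the type I partner of *Krt8*, was at 38.6, 26.5 and 38.7 CPM in control pools 3, 4 and 5, against 34.3, 43.1, 38.6 and 33.1 CPM in *Gata6*STOP/+ pools 1, 3, 4 and 5. The lowest and the highest pool were the same as for *Krt8*, and the other 5 pools spanned only 33.1 to 38.7 CPM. The means were 34.6 ± 6.99 CPM (SD, n = 3) and 37.3 ± 4.52 CPM (SD, n = 4). The log2 difference was 0.12 (SE 0.136, 95% interval −0.18 to 0.42, adjusted *P* = 0.861, limma), a ratio between 0.883 and 1.34. Without control pool 4 it was −0.06.

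*Krt19*, a type I keratin of ducts and of the developing gut lining, was at 70.7, 40.7 and 66.4 CPM in control pools 3, 4 and 5, against 43.8, 61.9, 53.6 and 53.5 CPM in *Gata6*STOP/+ pools 1, 3, 4 and 5. Control pool 4 was again the lowest, but here control pools 3 and 5 were the highest, and all 4 mutant pools lay between the control extremes. The means were 59.3 ± 16.2 CPM (SD, n = 3) and 53.2 ± 7.39 CPM (SD, n = 4). The log2 difference was −0.13 (SE 0.172, 95% interval −0.51 to 0.25, adjusted *P* = 0.891, limma), a ratio between 0.704 and 1.19. It was 0.02 without control pool 3 and −0.37 without control pool 4.

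*Sox2*, the anterior foregut transcription factor, was at 1.34, 1.10 and 2.58 CPM in control pools 3, 4 and 5 (28, 32 and 46 reads). It was at 2.25, 1.56, 0.976 and 1.19 CPM in *Gata6*STOP/+ pools 1, 3, 4 and 5 (64, 43, 24 and 41 reads). Mutant pool 1, the highest of the mutants for *Sox2*, was the lowest of them for *Krt8* and *Krt19*. Counting error was broad, with a 95% Poisson interval of 1.89 to 3.44 CPM in control pool 5 and of 0.626 to 1.45 CPM in mutant pool 4. The means were 1.67 ± 0.790 CPM (SD, n = 3) and 1.49 ± 0.556 CPM (SD, n = 4), and the log2 difference was −0.11 (SE 0.278, 95% interval −0.72 to 0.51, adjusted *P* = 0.946, limma). Without control pool 5 it was 0.17 and without mutant pool 4 it was 0.02. The interval corresponds to a ratio between 0.607 and 1.42, the widest of the 4 markers.

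**Figure D1:**
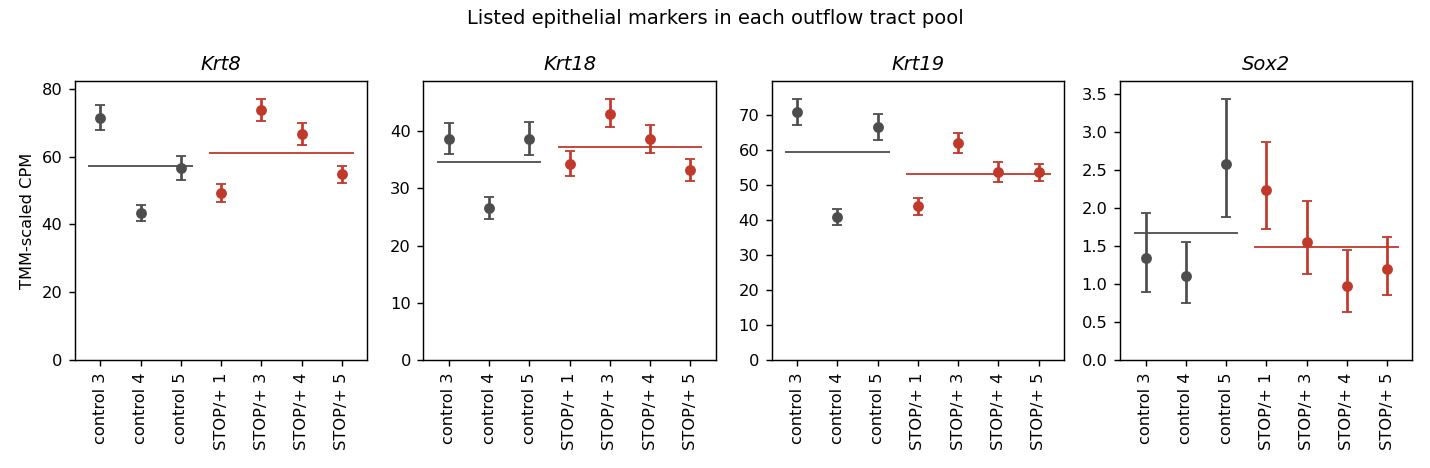
TMM-scaled CPM (y axes, each starting at 0) of Krt8, Krt18, Krt19 and Sox2 in 3 control pools (grey) and 4 Gata6STOP/+ pools (red, STOP/+), 1 point per pool with its 95% Poisson counting interval and a line at the group mean. Control pool 4 is lowest for the 3 keratins, at 43.4, 26.5 and 40.7 CPM, and the groups overlap in each of the 4 panels.

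Control pool 4 thus held the lowest value of 3 of the 4 listed markers, where 11.7% of all listed genes had their lowest value. It was also the lowest pool for 7 of 19 other listed epithelial genes. This pool had the most reads of the controls, 29035529, and the part of depth in its values was not tested. The summed level of the 4 markers was 182, 112 and 164 CPM in control pools 3, 4 and 5, against 130, 180, 160 and 143 CPM in *Gata6*STOP/+ pools 1, 3, 4 and 5, with the mutant range inside the control range.

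Per kilobase of exon, the 3 keratins stood at similar levels and *Sox2* far below. The length joins all annotated exons of a gene, which can exceed the length of any single transcript. Over the 7 pools the mean was 30.3 ± 5.86 CPM per kb for *Krt8* (SD, n = 7), 30.1 ± 6.04 for *Krt19*, 25.1 ± 3.72 for *Krt18* and 0.764 ± 0.297 for *Sox2*. By this measure *Krt8* exceeded 89.2% of listed genes, *Krt19* 89.1%, *Krt18* 86.3% and *Sox2* 12%. With these lengths the ratio of *Krt8* to *Krt19* per kb ran from 0.807 to 1.177 and fell on both sides of 1. The joined exons of *Krt19* span 1855 bases, but its longest protein-coding transcript has 1576 bases. With the shorter length *Krt19* would stand higher against both other keratins, so its place beside *Krt8* depends on the length taken. *Krt8* exceeded its partner *Krt18* in 7 of 7 pools, by a ratio of 1.05 to 1.36. The ratio of *Krt19* to *Krt18* ran from 1.19 to 1.42 in the controls and from 0.989 to 1.25 in the mutants, which overlap. On the same scale, *Myl7*, the atrial myosin light chain, was at 2272 CPM per kb, the mesothelial gene *Upk3b* at 55.2, the endothelial cadherin *Cdh5*, named after its values were seen, at 42.1 and the epithelial junction gene *Lsr* at 13.8.

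The value of *Krt8* carries a further uncertainty. Of its 1899 windows of 60 bases, the length of a read, 474 (25.0%) were also found in transcripts of the pseudogene *Krt8-ps*, which has no row here, so the reads of these stretches depend on how the quantification divided them. *Krt18*, *Krt19* and *Sox2* shared no such window with another gene. *Krt8* also shares 101 exonic bases with *Gm36026*, a non-coding gene on the opposite strand. *Sox2* lies inside *Sox2ot* on the same strand and shares no exonic base with it. Neither of these overlapping genes has a row.

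The listed keratins and claudins around the markers give the family context. In all, 11 keratins were listed, and *Krt8*, *Krt19* and *Krt18* led them per kb, followed by *Krt20* (3.79 CPM per kb) and *Krt7* (2.77 CPM per kb). In CPM, *Krt7* stood above *Krt20*, at means of 19.6 and 7.30. The joined exons span 7.049 kb in *Krt7* and 1.927 kb in *Krt20*, so their order depends on the length taken. *Krt7*, a type II keratin like *Krt8*, was at 17.2, 18.4 and 24.3 CPM in control pools 3, 4 and 5, against 15.1, 25.4, 14.5 and 22.2 CPM in *Gata6*STOP/+ pools 1, 3, 4 and 5. Its highest pool was that of *Krt8*, but its lowest was not, and its Pearson *r* with *Krt8* was 0.16 over 7 pools. Of the claudins, 9 were listed although *Cldn6* and *Cldn7* were not, and *Cldn12* was the highest, at a mean of 34.4 CPM. The epithelial claudins *Cldn3* and *Cldn4* had means of 1.66 and 1.73 CPM. *Krt7*, *Krt20*, *Cldn12*, *Cldn3* and *Cldn4* were picked for this paragraph after their values were seen.

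Over the 7 pools the keratins had alike courses and *Sox2* did not. On log2(CPM + 0.5), *Krt18* had a Pearson *r* of 0.89 with *Krt8* (Spearman rho 0.82) and *Krt19* an *r* of 0.81 (rho 0.82), whereas *Sox2* had an *r* of −0.13 (rho 0.11). These are descriptions over 7 pools that share library, depth and scaling with all other genes. Only 0.542% of the 11627 genes averaging 5 CPM or more had a higher *r* with *Krt8* than *Krt18* had, and 1.97% a higher one than *Krt19*. The 10 genes whose course was most like that of *Krt8* were *Mdp1* (*r* = 0.985), *Enkd1* (0.983), *BC017158* (0.973), *Pdlim1* (0.972), *Rrnad1* (0.971), *Ccdc115* (0.969), *Polr3g* (0.967), *Grhl1* (0.967), *Uchl1* (0.957) and *Tnnt1* (0.957). One of these, *Grhl1*, encodes a grainyhead transcription factor of epithelia. It was at 18.2, 10.2 and 14.5 CPM in control pools 3, 4 and 5, against 13.6, 20.9, 18.7 and 15.3 CPM in *Gata6*STOP/+ pools 1, 3, 4 and 5, with the same lowest and highest pool as *Krt8*. *Tnnt1* encodes a troponin T of muscle.

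The course of the keratins was set beside that of the other tissues of the dissection. Over the muscle genes the *r* with *Krt8* ran from 0.41 for *Actc1*, through 0.54 for *Tnnt2* and 0.71 for *Acta2*, to 0.92 for *Myl7*. Over the other epithelial genes it ran from −0.62 for *Elf3* to 0.97 for *Grhl1*, with −0.04 for *Lsr* and 0.80 for *Lamb3*. Among the pharyngeal endoderm genes it ran from −0.54 for *Hoxa3* to 0.76 for *Nkx2-6*, with 0.14 for *Hhex*, a transcription factor of the anterior endoderm. Among the mesothelial genes it ran from −0.52 for *Cdh3* to 0.38 for *Tcf21*, with −0.29 for *Upk3b*. *Elf3* and *Tcf21* were named after their values were seen, as the ends of these ranges. The mesothelial list as a whole was present, with 13 of 15 genes listed and a summed level of 646 to 764 CPM in controls and 590 to 794 CPM in mutants. Its median log2 difference was 0.03, and 1 gene, *Msln*, had an unadjusted *P*-value under 0.05 (−0.60, adjusted *P* = 0.517, limma, named after its values were seen). Over all genes, 8.06% had such an unadjusted *P*-value. Which cells the keratin reads came from was not tested, nor was the part of muscle or mesothelium in them.

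**Figure D2:**
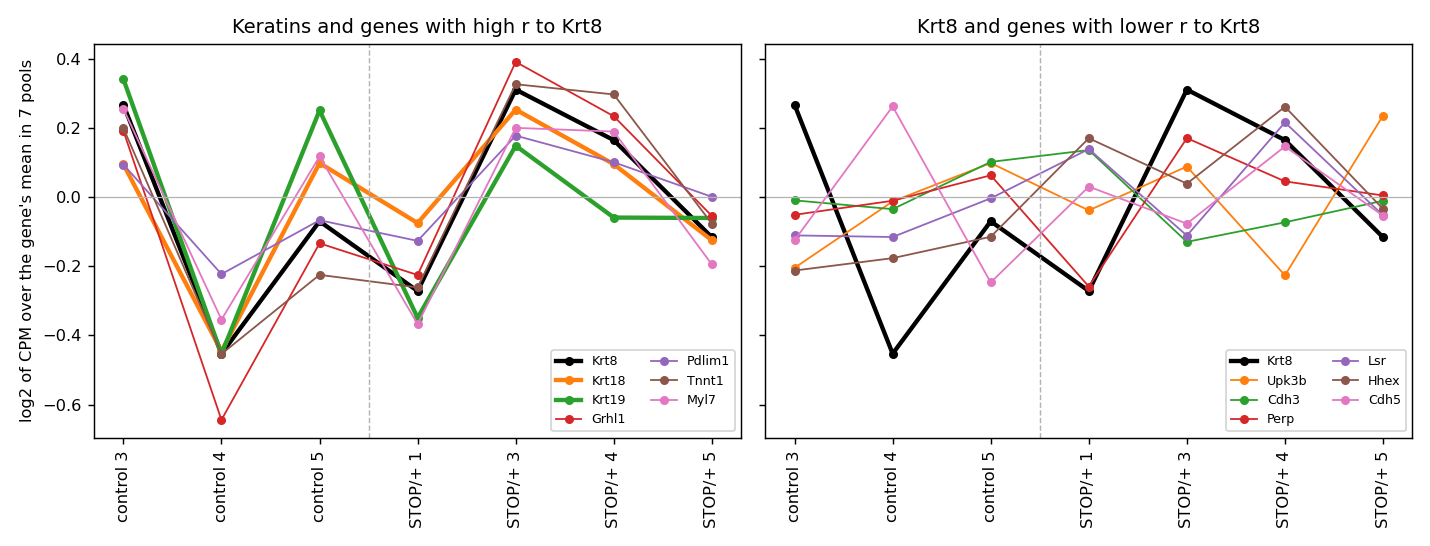
Log2 of each gene's CPM over its mean in the 7 pools (y axis) by pool (x axis), with control pools left of the dashed line and Gata6STOP/+ pools (STOP/+) right of it. Lines only join the points of a gene, since pools have no order. Krt8 (black) runs with Krt18, Krt19, Grhl1, Pdlim1, Tnnt1 and Myl7 in the left panel (Pearson r with Krt8 of 0.81 to 0.972). In the right panel it runs less with the other genes (−0.52 to 0.51). They are the epithelial Lsr and Perp, Hhex of the pharyngeal endoderm list, the mesothelial Upk3b and Cdh3, and the endothelial Cdh5. Both panels show chosen genes, and no list is shown whole.

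The other genes that define a gut-tube epithelium were then examined, from lists of related genes. Of 41 other epithelial genes reported here, 19 were listed. *Cdh1*, *Esrp1* and *Grhl2* were among the 22 with no row, as *Epcam* was. The 19 had a median log2 difference of 0.12, against −0.00073 over all listed genes, with 13 positive and 6 negative. With limma, edgeR (quasi-likelihood and likelihood ratio) and DESeq2, 0 of them passed the adjusted threshold, and in limma 2 (10.5%, near the 8.06% of all genes) had an unadjusted *P*-value under 0.05, both higher in mutants: *Itgb4* and *Lamb3*. In 2 of the 19 (10.5%, against 4.31% of all genes) each mutant pool lay above each control pool: *Itgb4* and *St14*. The summed level of the 19 was 170 to 209 CPM in controls and 202 to 218 CPM in mutants, which overlapped, as did the sum of the 4 markers.

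*Itgb4*, the integrin subunit of hemidesmosomes, was at 18.4, 13.8 and 11.1 CPM in control pools 3, 4 and 5, against 21.5, 19.2, 21.0 and 20.6 CPM in *Gata6*STOP/+ pools 1, 3, 4 and 5. All 4 mutant pools were above all 3 controls, with a log2 difference of 0.52 (SE 0.140, adjusted *P* = 0.334, limma). The epithelial protease gene *St14* differed by 0.35 (adjusted *P* = 0.673, limma), and *Lamb3*, a laminin chain of epithelial basement membranes named after its values were seen, by 0.38 (adjusted *P* = 0.534, limma). The most abundant others were closer to 0 or negative: the log2 difference was 0.22 for *Grhl3*, 0.12 for *Lsr* and −0.26 for *Spint2*, a protease inhibitor of epithelia.

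Of 21 genes of the pharyngeal endoderm and pouches, 7 were listed, and *Foxa1*, *Shh* and *Pax9* had no row, as *Foxa2* and *Pax1* had none. The 7 had a median log2 difference of 0.25, with 0 past the adjusted threshold and 3 with an unadjusted *P*-value under 0.05 (8.06% of all genes), all higher in mutants, in limma. *Hhex* was at 8.58, 8.80 and 9.18 CPM in control pools 3, 4 and 5, against 11.2, 10.2, 11.9 and 9.71 CPM in *Gata6*STOP/+ pools 1, 3, 4 and 5, a log2 difference of 0.26 (adjusted *P* = 0.542, limma). *Tbx1*, which is active in pharyngeal endoderm and also in the mesoderm that builds the OFT, differed by 0.39 (adjusted *P* = 0.517, limma). In *Hhex* and *Tbx1*, 2 of the 7, each mutant pool lay above each control pool, as in 4.31% of all genes. The third, *Eya1*, named after its values were seen, differed by 0.72 (adjusted *P* = 0.534, limma) at a mean of 1.85 CPM, with overlapping groups. The summed level of the 7 was 28.0 to 30.2 CPM in controls and 31.4 to 38.1 CPM in mutants. Of the 7, 5 overlapped between the groups and 4 averaged under 5 CPM. Which cells the reads of these genes came from was not tested. *Hoxa3* and *Nkx2-6* differed by 0.15 and 0.24, with overlapping groups.

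Genes of later foregut derivatives overlapped between the genotypes in all 8 listed cases. Of 21 genes of airway, oesophagus, thyroid and liver epithelium, 8 were listed, their median log2 difference was 0.06, and in limma 0 had an unadjusted *P*-value under 0.05. The most abundant were *Id2*, *Sox9*, *Etv5* and *Sox17*, none of which is particular to epithelium. *Nkx2-1* had no row. Of 15 surface ectoderm genes, 5 were listed, with a median of −0.03. Of these, *Cldn1*, a claudin of surface epithelia, had an unadjusted *P*-value under 0.05 and groups that did not overlap: 2.06, 3.48 and 3.08 CPM in control pools 3, 4 and 5, against 5.72, 3.73, 4.03 and 5.35 CPM in *Gata6*STOP/+ pools 1, 3, 4 and 5. Its log2 difference was 0.63 (adjusted *P* = 0.420, limma). Over all genes, 8.06% had such an unadjusted *P*-value and 4.31% such a rise without overlap. *Perp*, the most abundant of the 5, differed by −0.01.

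**Figure D3:**
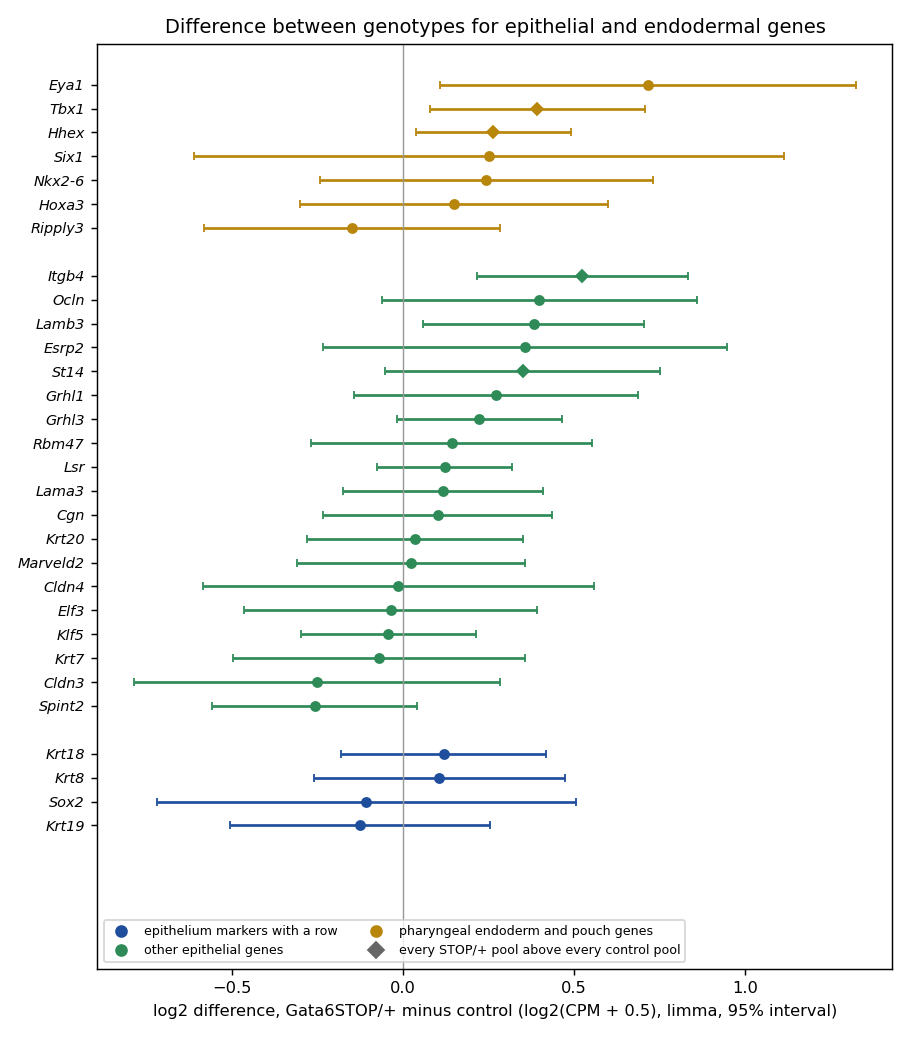
Log2 difference in log2(CPM + 0.5), Gata6STOP/+ minus control (x axis), with the 95% interval from limma, for the 4 listed epithelium markers (blue), 19 other epithelial genes (green) and 7 pharyngeal endoderm and pouch genes (yellow). Diamonds mark genes in which every mutant pool lay above every control pool, which holds for 0, 2 and 2 genes of the 3 groups and for 4.31% of all genes.

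Sets that share *Sox2* and *Pax1* as markers were also read. Of 15 neural crest, glial and neural progenitor genes, 9 were listed, with a median log2 difference of 0.01. Of these, *Erbb3*, a receptor of the Schwann cell lineage, had an unadjusted *P*-value under 0.05 (−0.39, adjusted *P* = 0.419, limma), as did the neuronal tubulin *Tubb3* (−0.39, adjusted *P* = 0.595, limma). Over all genes, 8.06% had an unadjusted *P*-value under 0.05 in limma. The sclerotome list had 4 listed genes of 10 symbols, 1 of which is an older name of *Nkx3-2*, and a median log2 difference of −0.10. Of the 4, *Foxc2* had an unadjusted *P*-value under 0.05 (−0.31, adjusted *P* = 0.577, limma), and so did *Nkx3-2*. *Nkx3-2* was at 0.527, 0.345 and 0.336 CPM in control pools 3, 4 and 5, against 1.44, 1.05, 1.34 and 0.872 CPM in *Gata6*STOP/+ pools 1, 3, 4 and 5. The groups did not overlap, with a log2 difference of 0.89 (adjusted *P* = 0.276, limma, and under the threshold with edgeR's likelihood ratio test). Such a rise without overlap was seen in 4.31% of all genes. Only mutant pools reached the 1 CPM needed for a row, so the listing of *Nkx3-2* already favoured a higher value in mutants.

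Genes of the mesenchyme that surrounds the pharyngeal epithelium were set beside the markers. *Barx1*, a homeobox gene of pharyngeal and foregut mesenchyme, was at 4.70, 3.04 and 4.09 CPM in control pools 3, 4 and 5, against 7.40, 10.1, 9.36 and 8.40 CPM in *Gata6*STOP/+ pools 1, 3, 4 and 5, a log2 difference of 1.08 (adjusted *P* = 0.097, limma). *Foxf1*, a factor of the mesenchyme around gut endoderm, differed by 1.14 (adjusted *P* = 0.243, limma), from 0.621 to 0.784 CPM in controls and from 1.30 to 2.98 CPM in mutants. Only mutant pools reached the 1 CPM needed for a row, so the listing of *Foxf1* already favoured a higher value in mutants. DESeq2 and edgeR's likelihood ratio test put both *Barx1* and *Foxf1* past the threshold. In *Barx1* and *Foxf1* each mutant pool lay above each control pool, as in 4.31% of all genes. The other 10 listed genes of 15 in this list had overlapping groups, and the median of the 12 was 0.01. In the same pools the 95% intervals of *Krt8*, *Krt18*, *Krt19* and *Sox2* ended at 0.47, 0.42, 0.25 and 0.51. The difference between these genes and the keratins was not itself tested.

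**Figure D4:**
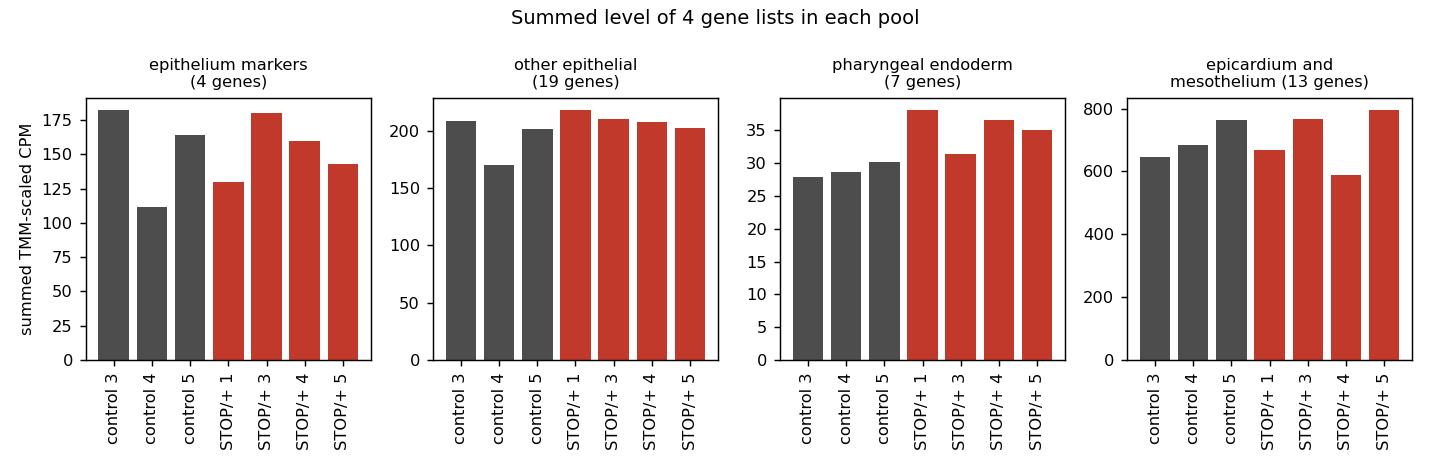
Summed TMM-scaled CPM (y axes, each starting at 0) of the 4 listed epithelium markers, 19 other epithelial genes, 7 pharyngeal endoderm genes and 13 epicardial and mesothelial genes in each control pool (grey) and Gata6STOP/+ pool (red, STOP/+). The sums overlap between genotypes for the markers (112 to 182 against 130 to 180 CPM), the other epithelial genes (170 to 209 against 202 to 218 CPM) and mesothelium (646 to 764 against 590 to 794 CPM) but not for the pharyngeal endoderm genes (28.0 to 30.2 against 31.4 to 38.1 CPM). Taken singly, 5 of those 7 genes overlap, and 0 of the 7 passed the adjusted threshold in limma.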

How the data were processed

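Libraries were made from polyadenylated RNA of pooled OFTs with a directional kit and read from 1 end over 60 bases. The authors removed adapters (Cutadapt v1.18) and estimated gene expression with RSEM v1.2.3 against GRCm38 and the Ensembl genes. They retained genes reaching 1 CPM in 3 or more samples, and deposited CPM values after TMM scaling in edgeR v3.32.1. In each pool all values were whole multiples of 1 step (tolerance 0.001 reads), which gave the reads. In 3 pools the step was a fraction of the smallest value, found by dividing it by whole numbers up to 20.

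Genotypes were compared by limma 3.58.1 in R 4.3.3 (lmFit, then eBayes with trend) on log2(CPM + 0.5). The test was two-sided with no covariate, and adjusted *P*-values (Benjamini-Hochberg) under 0.05 were called. Nothing in the labels says whether pools share litters. With 3 against 4 pools, an exact two-sided rank test cannot go below 0.0571 and was not used. Alternatives were constants of 0.1 and 2, only genes averaging 5 CPM or more, median-of-ratios scaling, a block for the replicate number, count models on the recovered reads (edgeR 4.0.16 and DESeq2 1.42.0), and leaving out each pool. The fits were checked on simulated reads.

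The markers and lists were chosen with earlier results of these data known. Genes eligible to be named were every marker, *Gata6*, the 4 most abundant genes of each list, list genes past the threshold or without overlap, the 10 genes most like *Krt8* (which took the place of *Epcam*) and genes overlapping a marker. Others are named as chosen later. Some genes of the other epithelial list are not reported here and were left out of its counts and sums, for a reason unrelated to their values. Lengths and positions are those of GENCODE M21 (GRCm38).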

Additional observations from a re-analysis of the deposited data

Results flagged for a closer look

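Of the 55 genes covered by the naming rule and checked in the 4 *Gata6*STOP/+ pools, 1 had a pool far from the others. *Tfap2a*, a transcription factor of surface ectoderm and neural crest, was at 1.74 CPM in *Gata6*STOP/+ pool 3, below the next pool at 2.28 CPM, while the highest was at 2.38 CPM. The gap to the nearest pool was 0.835 of the range. Chance alone flags about 1 in 20 groups. None of *Krt8*, *Krt18*, *Krt19* and *Sox2* had such a pool.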

How the results depend on the processing

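The number of genes called over the whole table was 0 with limma and with edgeR's quasi-likelihood test, 1 with a constant of 0.1, 105 with edgeR's likelihood ratio test and 88 with DESeq2. Leaving out 1 pool gave 0 to 13 calls, with 13 without control pool 4, 2 without *Gata6*STOP/+ pool 3 and 1 without pool 1. With the replicate number as a block, limma called 14, the quasi-likelihood test 13 and the likelihood ratio test 118. No control pool is numbered 1, so *Gata6*STOP/+ pool 1 adds nothing to the genotype difference in these block fits. In limma the log2 difference of *Krt8* was 0.20 both with the block and without that pool. Same-numbered pools did not deviate together (correlations −0.0084, −0.118 and −0.0016). These values are few and were taken after centring each group on its mean. They cannot decide whether the numbers pair the pools. No alternative called *Krt8*, *Krt18*, *Krt19* or *Sox2*, whose smallest adjusted *P*-values were 0.838, 0.780, 0.394 and 0.794. Their directions held under every other tool, constant and scaling run, but not when a pool was left out. The log2 difference then ranged from −0.08 to 0.28 for *Krt8* (−0.076 without control pool 4) and from −0.06 to 0.21 for *Krt18* (−0.059 without control pool 4), from −0.37 to 0.02 for *Krt19* (0.021 without control pool 3) and from −0.30 to 0.17 for *Sox2* (0.17 without control pool 5, 0.024 without *Gata6*STOP/+ pool 4). *Sox2* was not in the fit of genes averaging 5 CPM or more. *Gata6* passed the threshold with the likelihood ratio test and block (−0.42, adjusted *P* = 0.0164), a difference to which *Gata6*STOP/+ pool 1 does not contribute. Among the lists, calls were 1 sclerotome gene (*Nkx3-2*, likelihood ratio test), 1 pharyngeal mesenchyme gene (*Barx1*, limma and quasi-likelihood with block) or 2 (*Barx1* and *Foxf1*, likelihood ratio test with and without block, and DESeq2), and 1 outflow tract gene (*Postn*, likelihood ratio test with block). The cause of these differences was not tested. *Nkx3-2* and *Foxf1* had rows only through mutant pools. The keratins rested on 691 to 2033 reads per pool and *Sox2* on 24 to 64, and in each the pools of a group differed beyond counting error.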
